A study of Bos taurus with 15 samples.

Results

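Some genes were read in part of the heifers and were absent or many times lower in the others, with an empty range of values between both sets of animals. These genes were found in the normalized table of 12270 genes. For each gene, log2(CPM + 0.5) was taken in the 15 heifers, where CPM is the read count of a gene scaled to the size of its library. The values were sorted and the largest gap between neighbouring heifers was measured. Genes were selected on this gap alone, which had to be at least 2 on the log2 scale, a 4-fold step with the pseudocount included. This gave 32 genes, 0.261% of the table, after 3 IDs were left out, 1 of which had such a gap. The genes were thus chosen by their own measured levels, and the number and level of the heifers on each side are given as a description without a test. Pregnancy outcome was not used in the choice.

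The animals were Angus-Simmental crossbred heifers developed as replacement females, and none of the labels gives a treatment that differs between them. Blood was drawn at weaning. White cells were pelleted after lysis of the red cells, and 1 library of peripheral white blood cells (PWBC) was sequenced per heifer. Outcome was known only later, after synchronized estrus, timed artificial insemination (AI) and exposure to bulls: 8 heifers were pregnant to AI (IDs 4, 6, 34, 40, 41, 43, 45 and 47) and 7 remained not-pregnant, labelled as not pregnant to AI (IDs 3, 33, 37, 39, 42, 44 and 48). Heifers that conceived to natural service were not part of the study.

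PWBC are a mixture of granulocytes, lymphocytes and monocytes, so a gene can differ between animals in the cells that are present or in its level per cell, and bulk counts cannot tell these apart. As background, cattle differ from one another in the number of copies of many genes, in deletions and in regulatory variants. Genes of multigene immune families, such as those of the major histocompatibility complex, are known to be present on some haplotypes and missing from others. The deposited tables list Ensembl IDs, and no table used here pairs them with names or positions. For this reason no name, function, chromosome, neighbour or sequence is given, the labelled cell type could not be compared with marker genes, and reads shared with a similar gene or a gene on the opposite strand cannot be told apart. No genotype was used, and the part of deletions or haplotypes was not tested. The genes are numbered 1 to 32 from the largest gap to the smallest, and 4 of them are also given by ID.

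The libraries held 15987111 to 24909038 counts on genes, 16415025 to 22281003 in heifers pregnant to AI and 15987111 to 24909038 in not-pregnant heifers. In the whole table the largest gap of a gene had a median of 0.25, and 199 genes (1.62%) had a gap of at least 1. Heifers 43 and 48 stood alone at the largest gap in 1461 and 1124 of the 12270 genes, against 106 to 499 genes for each of the other heifers. Among the 32 genes, heifer 43 was alone in 0 and heifer 48 in 1. Without both heifers, left out together after the data were seen, 36 genes had a gap of at least 2, and 31 of them were among the 32.

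**Figure D1:**
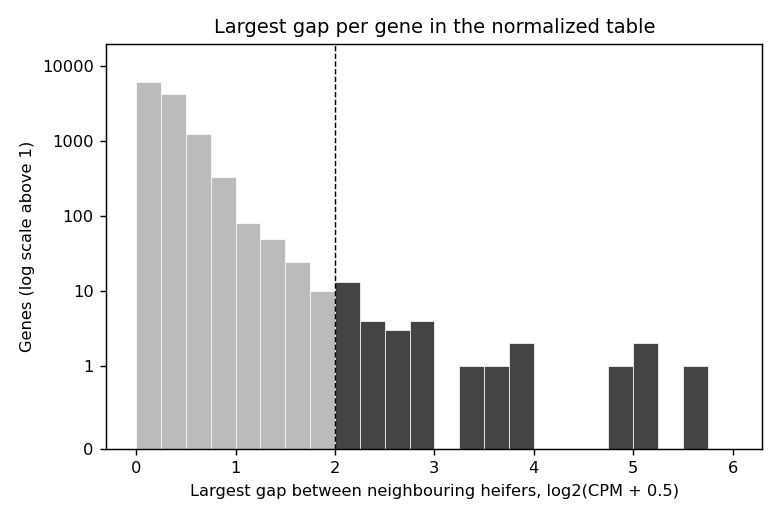
Number of genes (log axis above 1) by the size of the largest gap between neighbouring heifers, in log2(CPM + 0.5), over the genes of the normalized table. Bars right of the dashed line at 2 are the 32 genes described, of which 8 had a gap of at least 3 and 4 a gap of at least 4.

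The gaps of the 32 genes ranged from 2.005 to 5.62 with a median of 2.43. The 3 genes just inside the limit had gaps of 2.007, 2.005 and 2.005, and the 3 just outside had 1.986, 1.966 and 1.892. The limit therefore cut through a continuous range of gaps, as the histogram of gaps shows. The low heifers were on the rarer side in 24 genes, and the high heifers in the other 8. A single heifer stood apart in 15 genes, low in 9 and high in 6. These directions depend on the authors' filter, which removes genes with at least 1 CPM in fewer than 8 heifers. Among the genes it removes, 22 more had a gap of at least 2 in the raw table, 11 with 1 heifer high, 11 with 2 to 7 heifers high and 0 with the low heifers on the rarer side. Over the genes of the table read here, the rarer side at the largest gap was 1 low heifer in 23.2% and 2 to 7 low heifers in 30.4%. In 9 genes 2 or 3 heifers stood apart, and in 8 genes at least 4 heifers lay on each side. In the whole table a single heifer stood apart at the largest gap in 47.2% of the genes, against 46.9% of the 32.

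The low side was not always silent. All low heifers were under 0.5 CPM in 14 genes, where none had over 10 counts. A low heifer with 0 counts occurred in 7 genes, and in 3 genes (5, 8 and 14) every low heifer was at 0. In 17 genes the highest of the low heifers was above 1 CPM, and 11 genes had at least 1 CPM in all 15 heifers, so these were stepped rather than on or off. The median CPM of the low heifers had a median over the 32 genes of 0.901, and that of the high heifers 20.4. CPM has no correction for gene length, so these levels do not rank the genes against each other. Limits set by low counts cover counting error only, since reads without molecular identifiers are not independent molecules.

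**Figure D2:**
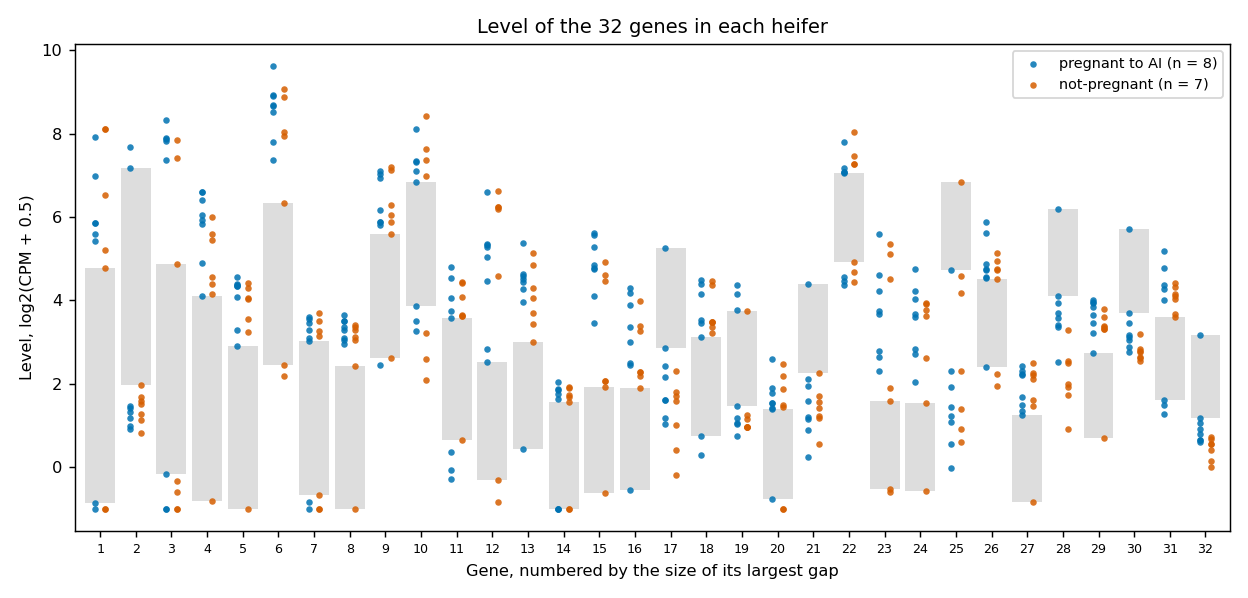
Level of the 32 genes, as log2(CPM + 0.5), in each heifer, with genes ordered from the largest gap to the smallest. Each point is 1 heifer (blue, pregnant to AI, n = 8; orange, not-pregnant, n = 7) and the grey box is the gap. In 11 of the 17 genes with at least 2 heifers on the rarer side, heifers of both outcomes lie above and below the box. This is a description, without the share over all genes.

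The 8 genes with at least 4 heifers on each side were 1, 3, 7, 10, 11, 14, 19 and 22. Gene 1, ENSBTAG00000038128, had the largest gap of all. It was at 0 counts in heifers 3, 39 and 41 and had 1 count in heifer 43. The other 11 heifers had between 26.7 and 278 CPM (median 57.2), with at least 443 counts each. Heifers 33, 37 and 45 were the highest of these, at 275, 278 and 244 CPM, and the other 8 lay between 26.7 and 127 CPM. Heifers of both outcomes were at 0 and at the highest level.

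Gene 3, ENSBTAG00000009656, divided the heifers almost evenly, into 8 high and 7 low. It was at 0 counts in heifers 3, 39, 41 and 43, the 4 heifers that were low for gene 1, and had 4, 5 and 7 counts in heifers 33, 37 and 45. These last 3 heifers were the highest ones for gene 1. Of the high heifers, 7 lay between 166 and 321 CPM, and heifer 48 alone had an intermediate level of 28.9 CPM. A second gap of 2.50 separated heifer 48 from the others above it, the only second gap of at least 2 among the 32 genes.

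Gene 14 was at 0 counts in heifers 3, 39, 41, 43 and 45. The 10 high heifers lay close together, between 2.43 and 3.60 CPM (45 to 82 counts), with an SD of 0.15 on the log2 scale. A count of 0 allows up to 3 counts per library, or 0.177 CPM in the shallowest of the 5, so the median of the high heifers was at least 16.9-fold higher. The low heifers of genes 1, 14 and 3 were nested: the 4 low for gene 1 were all low for gene 14, and the 5 low for gene 14 were all low for gene 3. Genes 1 and 14 differed only in heifer 45, which had 244 CPM for gene 1 and 0 counts for gene 14.

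Genes 10 and 22 formed a second pair with nearly the same heifers. Both were low in heifers 3, 33, 43, 45 and 47, and in addition gene 10 was low in heifer 39 and gene 22 in heifer 37. The 6 low heifers of gene 10 had 3.78 to 14.04 CPM (94 to 230 counts), and the 9 high heifers had 114 to 344 CPM. For gene 22 the low heifers had 20.0 to 29.7 CPM and the high heifers 132 to 261 CPM, with a median of 154. Neither gene was silent in any heifer.

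Gene 7 had another pattern, with 0 counts in heifers 40, 42 and 44, 1 count in heifer 47 and 2 in heifer 48. The 10 high heifers ranged only from 7.62 to 12.5 CPM (median 9.88). None of its 5 low heifers was low for gene 1 or for gene 3. Gene 11 was low in heifers 39, 40, 43 and 45, with 22, 8, 6 and 14 counts, and ranged from 11.5 to 27.5 CPM in the other 11. Gene 19 was the only one of these 8 genes that was high in the minority. It had 12.8 to 20.0 CPM in heifers 6, 39, 41 and 43 and 1.16 to 2.24 CPM in the other 11, so heifers 39, 41 and 43 were high for gene 19 and low for genes 1, 3 and 14.

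**Figure D3:**
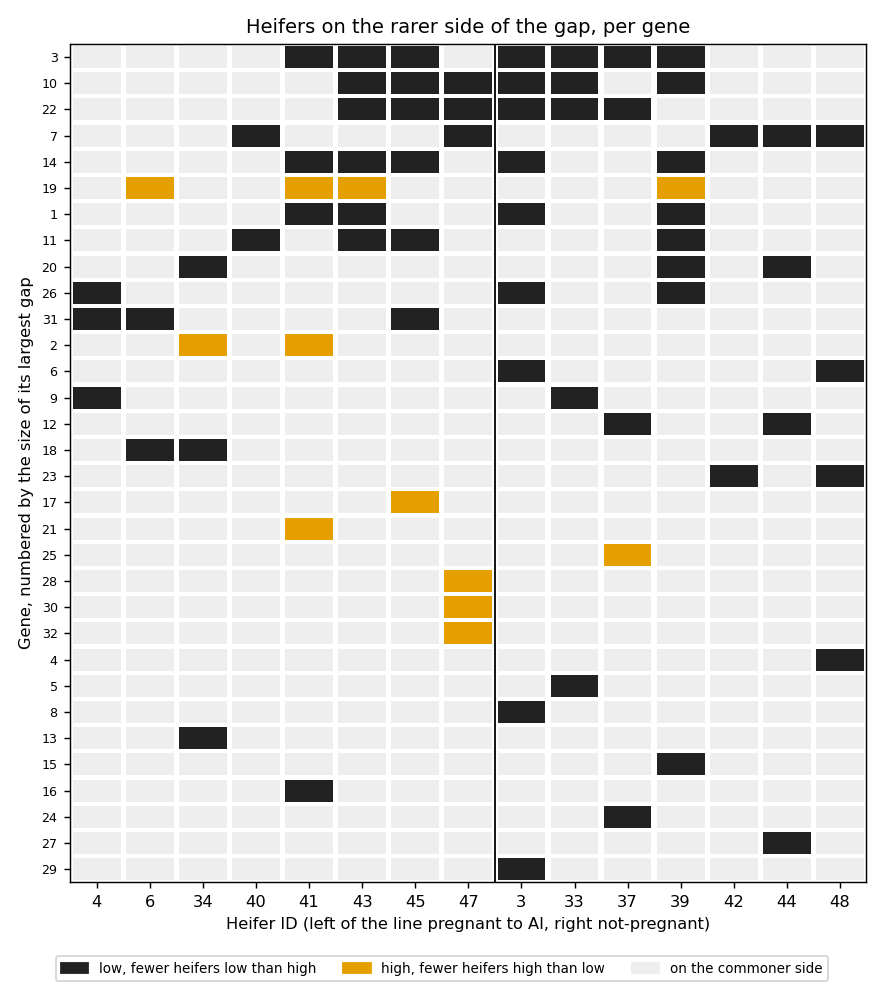
State of each of the 32 genes (rows) in each heifer (columns, heifers pregnant to AI left of the line and not-pregnant heifers right of it). Dark cells are heifers that were low where fewer heifers were low than high, orange cells are heifers that were high where fewer were high than low. Heifers of both outcomes are on the rarer side in 11 of the 17 rows with at least 2 such cells, a count given without the share over all genes. Heifer 47 has the orange cells of genes 28, 30 and 32.

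Between pairs of these 8 genes the number of heifers in the same state had a median of 9 of 15 and ranged from 2 to 14, and 3 of the 28 pairs (1 with 14, 3 with 14 and 10 with 22) differed in at most 2 heifers. The levels of genes 1 and 14 had a Pearson r of 0.75 over the 15 heifers, genes 3 and 14 one of 0.74 and genes 10 and 22 one of 0.62, values that rest on the same libraries and on the states themselves. Genes 1 and 19 were in opposite states in 13 of 15 heifers. No 2 of the 17 genes with at least 2 heifers on the rarer side had the same split, so a recurring set of several heifers was similar but never identical.

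Seen by animal, heifers 3, 43 and 45 were each low in 6 of these 8 genes and heifer 39 in 5, whereas heifer 6 was low in 0 and heifers 4 and 34 in 1. Heifers 42, 44 and 48, all not-pregnant, had the same state in all 8 genes, and so had heifers 4 and 34, both pregnant to AI. Heifer 43 was in the opposite state to heifers 42, 44 and 48 in all 8. Over the 105 pairs of heifers the number of genes in the same state had a median of 4 within an outcome group and 5 between the groups. No pedigree was used here.

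In 8 genes 2 or 3 heifers were low. Gene 6 had 4.93 and 4.07 CPM in heifers 3 and 48, 79.7 CPM in heifer 42 and 165 to 788 CPM in the other 12. Gene 9 was low in heifers 4 and 33, at 4.96 and 5.63 CPM, against 48.1 to 147 CPM. Gene 12 was nearly silent in heifers 37 and 44, with 1 and 5 counts. It had an intermediate level in heifers 4 and 45, at 5.25 and 6.56 CPM, and 21.6 to 98.1 CPM in the other 11. The step between these 2 heifers and the 11 above them was a second gap of 1.64.

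Gene 23 had 3 counts each in heifers 42 and 48 and spread over a wide range elsewhere, from 2.49 to 47.6 CPM. Gene 20 had 0 counts in heifers 39 and 44 and 2 counts in heifer 34, and 2.12 to 5.53 CPM in the others. Gene 18 was lower in heifers 6 and 34 (0.728 and 1.17 CPM, against 8.20 to 21.8 CPM) and gene 26 in heifers 3, 4 and 39 (3.34 to 4.78 CPM, against 22.2 to 58.2 CPM). Genes 12, 20 and 23 were under 0.5 CPM in all of their low heifers, and the other 5 were not.

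Gene 2, ENSBTAG00000040367, was the only gene in which exactly 2 heifers were high. Heifers 34 and 41, both pregnant to AI, had 145 and 204 CPM, while the other 13 heifers had 1.25 to 3.39 CPM (26 to 66 counts). The 13 low heifers were close together but not at 0. Both outcomes were present on the low side, with 6 heifers pregnant to AI and all 7 not-pregnant heifers.

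Of the 9 genes in which 1 heifer was low, the largest gap was that of gene 4, with 1 count in heifer 48 (0.0626 CPM) and 16.6 to 97.2 CPM in the other 14. Gene 5 had 0 counts in heifer 33, the most deeply sequenced library, and 7.02 to 23.0 CPM elsewhere, so the lowest of the others was at least 58.2-fold above the limit set by 3 counts. Gene 8 had 0 counts in heifer 3 and 4.83 to 12.1 CPM elsewhere, at least 31.3-fold above that limit.

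Heifer 3 was also the single low heifer for gene 29, but there it kept 22 counts (1.13 CPM), against 6.14 to 15.7 CPM. Gene 15 had 3 counts in heifer 39, 3.26 to 3.70 CPM in heifers 3, 42 and 48, and 10.4 to 48.6 CPM in the other 11. Genes 16 and 24 had 3 counts each in heifers 41 and 37, against at least 80 and 60 counts elsewhere. Gene 13 had 19 counts in heifer 34, against 7.52 to 41.4 CPM elsewhere.

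The 6 genes in which a single heifer was high had gaps from 2.005 to 2.41, and those with a single low heifer had gaps from 2.03 to 4.93. Heifer 47 accounted for 3 of them, the most for any heifer. Gene 28, ENSBTAG00000019669, had 72.4 CPM in heifer 47 and 1.39 to 16.6 CPM in the other 14. Gene 30 had 51.9 CPM in heifer 47 and 5.29 to 12.5 CPM elsewhere, and gene 32 had 8.54 against 0.501 to 1.75 CPM. In each of these 3 genes heifer 34 was the next highest. Over the 14 other heifers the levels of genes 28 and 30 had a Pearson r of 0.77, genes 28 and 32 one of 0.56 and genes 30 and 32 one of 0.42. In the whole table heifer 47 was alone with a gap of at least 1 in 28 genes, in 24 of them as the highest, against 1 to 21 genes for each of the other heifers.

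Gene 25 was highest in heifer 37, at 114 CPM. Heifers 40, 42 and 48 followed at 17.6 to 26.2 CPM, and the other 11 lay between 0.488 and 4.43 CPM, so the single high heifer topped a range and not a silent gene. Gene 17 had 37.8 CPM in heifer 45 and 0.376 to 6.71 CPM elsewhere. Gene 21 had 20.5 CPM in heifer 41 and 0.679 to 4.28 CPM elsewhere. The split of 9 of the 32 genes recurred in another of them, and all 9 were genes with 1 heifer apart (heifer 47 with 3 genes, and heifers 3, 37 and 41 with 2 each). For heifers 37 and 41, 1 of these genes was low and the other high. This count is not stable, as it was 0 with a pseudocount of 1, 22 with a pseudocount of 0.1 and 5 with TMM scaling.

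Each heifer was on the rarer side in 2 to 9 of the 32 genes. Heifers 3 and 39 were there most often, in 9 genes each, and heifers 40 and 42 least, in 2 each. The median was 5 genes in both outcome groups, with a range of 2 to 7 in heifers pregnant to AI and 2 to 9 in not-pregnant heifers. Heifers 3 and 39 had 19493591 and 20903333 counts, above the shallowest libraries (heifers 48 and 47, with 15987111 and 16415025 counts), which were on the rarer side in 4 and 6 genes.

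Differences of these genes with pregnancy outcome were tested over all 12270 genes in 2 main ways, the first on state and the second on level. An exact permutation test of the mean level was run as a further check. First, the heifers of every gene were divided at its largest gap into high and low, and this state was compared with outcome by a two-sided Fisher's exact test with Benjamini-Hochberg adjustment over all genes. None of the 32 genes passed (0 at an adjusted p of at most 0.05, as for all genes, 0%). None had an unadjusted p under 0.05 either, against 929 of all genes (7.57%). The smallest value among the 32 was 0.20 (Fisher's exact test, adjusted p = 0.896). It belonged to genes 6, 12 and 23, in which 2 not-pregnant heifers were low, and to gene 31, in which 3 heifers pregnant to AI were low.

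The design limits this test. With 1 heifer apart the smallest p that Fisher's exact test can give is 0.467, and with 2 it is 0.20, so only the 8 genes with at least 4 heifers on each side could have reached 0.05. In all 8, heifers of both outcomes were found on both sides. The share of such genes over the whole table is not given, so this count is a description and not a result about these 8. Gene 1 was low in 2 heifers pregnant to AI and 2 not-pregnant heifers, gene 14 in 3 and 2, genes 10 and 22 in 3 and 3 each, gene 3 in 3 and 4, gene 7 in 2 and 3 and gene 11 in 3 and 1. Gene 19 was high in 3 heifers pregnant to AI and 1 not-pregnant heifer. Of the 15 genes with 1 heifer apart, that heifer was pregnant to AI in 7 and not-pregnant in 8. It was high in 5 and low in 2 of the former, and high in 1 and low in 7 of the latter. These are not independent cases, since heifer 47 made up 3 of the 5 and heifer 3 made up 2 of the 7. A link of this direction with outcome was not tested, and the same count over all genes is not given. The gaps rest on CPM without TMM factors. With library size only, edgeR gave an all-gene median log2 fold change of 0.18, higher in heifers pregnant to AI.

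Second, the counts were compared between the outcome groups with edgeR's quasi-likelihood test, adjusted over 12270 genes, where called genes had an adjusted p no larger than 0.05 and a log2 fold change of 0.5 or more in either direction. Of the 32 genes 2 were called (6.25%), genes 2 and 28, against 5.85% of all genes, a share close to the background. That background was not stable, with 80 to 1875 of all genes called when 1 heifer was left out. The paper, with DESeq2 and an adjustment its abstract names Bonferroni, reports fewer genes at these limits. The reason for this difference was not tested. Both were higher in heifers pregnant to AI, a direction in which 3.66% of all genes were called, and 0 were called lower, against 2.19% of all genes. In all, 6 genes (18.8%) had an unadjusted p under 0.05, against 34.4% of all genes. The log2 fold changes of the 32 genes had a median of 0.19, against 0.01 for all genes, with 21 above 0 and 11 below. Their standard errors were between 0.32 and 1.52 with a median of 0.61, which limits the differences that could be called.

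Gene 28 ranged from 5.25 to 72.4 CPM (median 11.9) in heifers pregnant to AI and from 1.39 to 9.20 CPM (median 3.49) in not-pregnant heifers. The groups overlapped, but on CPM without TMM factors 7 of the 8 heifers pregnant to AI were above all not-pregnant heifers. Between the groups edgeR gave a log2 fold change of 1.97 with a standard error of 0.50 (adjusted p = 0.0311), and without heifer 47, the high one, it was 1.24 and still called. The call was lost without heifer 3, 34, 39, 42, 44, 45 or 48 in turn, with adjusted p-values up to 0.0721 in edgeR. Over all 12270 genes these fits called 80 to 366, against 718 with all heifers. Heifer 47 alone set the gap of this gene, whereas the call did not need it.

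For gene 2 edgeR gave a log2 fold change of 4.10 with a standard error of 1.25 (adjusted p = 0.0454), although its median was 2.10 CPM in heifers pregnant to AI and 2.35 CPM in not-pregnant heifers. The 2 high heifers alone were above all not-pregnant heifers. The call held in only 4 of 15 fits with 1 heifer left out (heifers 4, 6, 37 and 40), and without heifer 34 or 41 the log2 fold changes were 3.58 and 3.07. The fits that lost the call also called fewer of all genes, 80 to 415 against 718 with all heifers. DESeq2, which replaces outlying counts, gave a log2 fold change of -0.34 and no call (adjusted p = 0.289). An exact permutation test of the mean log2(CPM + 0.5) over all 6435 splits of the heifers, two-sided, gave p = 0.43 (adjusted p = 0.556 over all genes).

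The other genes with an unadjusted edgeR p under 0.05 were 17, 25, 30 and 32, and none of them was called. Their adjusted p-values in edgeR were 0.107, 0.129, 0.107 and 0.0960, with log2 fold changes of 1.64, -2.23, 0.97 and 1.15 (standard errors 0.69, 1.002, 0.41 and 0.46). The size of each fold change rested largely on the single high heifer of the gene. Without that heifer the log2 fold change was 0.51 for gene 17 (heifer 45), -0.89 for gene 25 (heifer 37), and 0.29 for gene 30 and 0.42 for gene 32 (heifer 47). With it included, 3 of 8 heifers pregnant to AI lay above all not-pregnant heifers for genes 17 and 30, and 5 of 8 for gene 32. Of the 7 not-pregnant heifers, 3, 4 and 5 lay below all heifers pregnant to AI for genes 17, 30 and 32. For gene 25 only heifer 37 lay above all heifers pregnant to AI, and 2 of these lay below all not-pregnant heifers. Such counts used CPM without TMM factors, unlike the edgeR values beside them, and their share over all genes is not given. The TMM factors ranged from 0.842 to 1.06 in not-pregnant heifers and from 0.916 to 1.14 in heifers pregnant to AI. The counts can therefore change with TMM scaling. Gene 25 was called in 1 of 15 fits with 1 heifer left out, that without heifer 40, with a log2 fold change of -3.50 (edgeR adjusted p = 0.0423). The remaining 26 genes had log2 fold changes between -0.69 and 1.19, and the lowest of their adjusted p-values was 0.186 in edgeR. By the exact permutation test of the mean level 5 of the 32 genes had an unadjusted p under 0.05, against 36.5% of all genes, and 0 passed adjustment over all genes, as for all genes (0%). Unlike edgeR, the permutation test used CPM without TMM factors. On the same values limma gave an all-gene median log2 fold change of 0.16, against 0.01 in edgeR.

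**Figure D4:**
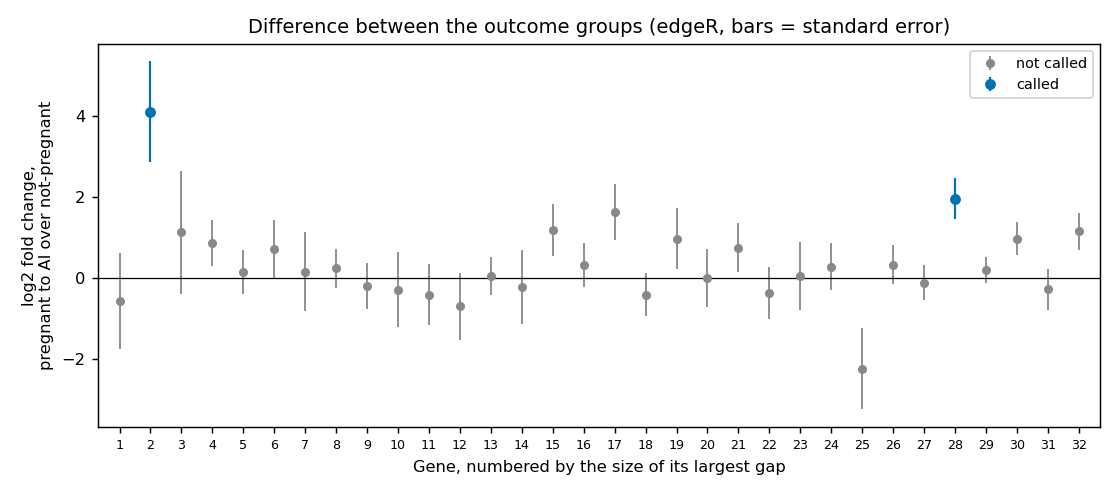
Log2 fold change between heifers pregnant to AI (n = 8) and not-pregnant heifers (n = 7) for the 32 genes, from edgeR on the raw counts, with bars for 1 standard error. Positive values are higher in heifers pregnant to AI. Genes 2 and 28, in blue, were called, and the other 30 were not.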

How the data were processed

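RNA from PWBC of 15 heifers was sequenced by the authors as paired-end reads and aligned with STAR 2.7.5 to the Ensembl Bos taurus genome ARS-UCD1.2. The authors deposited raw counts per gene, as STAR counted them, for 27607 genes. They also deposited normalized values, which are CPM from edgeR 3.28.1 over the 12270 genes with at least 1 CPM in at least 8 heifers. Each deposited CPM equalled the raw count rescaled over these genes (largest relative difference 5.1e-15) and had no TMM factor. Annotation release and strand setting are not given in the sources used here.

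Groups follow the labels and columns were matched by heifer ID. Gaps were measured on log2(CPM + 0.5), a scale that understates changes of low genes. The groups were compared on raw counts with TMM normalization and edgeR 4.0.16 (R 4.3.3), with outcome as the only term and Benjamini-Hochberg adjustment over 12270 genes. Standard errors were derived from the fold change and the F statistic (its size over the root of F). Fisher's exact tests used scipy 1.17.1, and the permutation tests were computed over all splits with numpy 2.4.6. Alternatives were DESeq2 1.42.0, limma 3.58.1, other scalings, filters and pseudocounts, other gap limits and each heifer left out. The procedures were tested on simulated data. No pair of heifers of one group was as close as counting noise (chi-square per degree of freedom at least 35.8 over 49 pairs).

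The genes, lists and tests were chosen with earlier results of these data known. Planned gene lists and cell type markers were not applied, because no table used here names the IDs. Values are given for the 15 genes with the largest gap, those whose split recurred, further genes by gap up to 30 and those called, and genes 27 and 31 are only counted or listed where a test names them. IDs are limited to 4, the 2 called genes and those with the largest gaps of which at least 4 heifers were low. Reads were not analysed here.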

Additional observations from a re-analysis of the deposited data

Results flagged for a closer look

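Within each outcome group, the distance of the highest or lowest heifer from the next one was divided by the range of the group, for the 32 genes on the log2(CPM + 0.5) scale and for 3 measures per heifer. In 18 of 70 sets this value was above Dixon's 95% critical value (0.526 for 8 heifers, 0.568 for 7), which is exceeded in about 1 in 20 sets without any outlying animal. All 18 were genes chosen for a gap between heifers, so they are a description of the same gaps.

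Among heifers pregnant to AI the lowest heifer stood apart for gene 9 (heifer 4, 0.721), gene 13 (heifer 34, 0.714), gene 16 (heifer 41, 0.619), gene 20 (heifer 34, 0.642) and gene 26 (heifer 4, 0.615). The highest heifer stood apart for gene 17 (heifer 45, 0.568), gene 21 (heifer 41, 0.551) and, each time in heifer 47, for gene 28 (0.570), gene 30 (0.681) and gene 32 (0.775).

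Among not-pregnant heifers the lowest heifer stood apart for gene 4 (heifer 48, 0.730), gene 5 (heifer 33, 0.784), gene 8 (heifer 3, 0.775), gene 9 (heifer 33, 0.650), gene 11 (heifer 39, 0.782), gene 27 (heifer 44, 0.691) and gene 29 (heifer 3, 0.843). Heifer 39 was the highest for gene 19 (0.896). Gene 9 is listed in both groups, because 1 heifer of each was low.

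The normalized table leaves out genes that few heifers express. Among the 8313 further genes with a count in the raw table, 22 had a gap of at least 2 by the same measure, with CPM over all genes. In 11 of them 1 heifer was high and in 11 others 2 to 7 heifers were high. None had 8 or more high heifers, as the filter keeps every gene with at least 1 CPM in 8 heifers. Heifers 33 and 47 were the single high heifer in 4 genes each, and heifers 37 and 43 were high together in 3 genes, the only set of several heifers that recurred. None of the 22 genes shared a split of 2 or more heifers with the 32.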

How the results depend on the processing

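The number of genes with a gap of at least 2 was 32. It was 29 with TMM scaling (all among the 32), 48 with a pseudocount of 0.1 and 30 to 36 with each heifer left out. It was 21 with a pseudocount of 1, 66 at a gap of 1.5, 8 at a gap of 3, 54 with all genes of the raw table and 11 among genes with at least 1 CPM in every heifer, each by construction of the criterion. The number of genes with 1 heifer apart, 15, became 8 with a pseudocount of 1, 28 with 0.1, 37 at a gap of 1.5 and 3 at a gap of 3. The number whose split recurred, 9, became 0, 22, 34 and 0 under the same settings and 5 with TMM scaling, so it moved with the pseudocount, the limit and the scaling.

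The number of genes called between the outcome groups, 2, was 1 with DESeq2, with limma on the deposited CPM plus 0.5 and without a filter on low counts, in each case gene 28. Over all genes DESeq2 and limma called 1116 and 1003 of 12270, and the fit without a filter 448 of 20583. It stayed at 2 with DESeq2 without outlier replacement, DESeq2 size factors and library size only, where the all-gene median moved from 0.01 to 0.18. With limma on CPM plus 1 the number was also 2, genes 28 and 15, with 935 of all genes called. A share close to the background is stated for the main edgeR fit only. Fits with 1 heifer left out called 0 to 3 genes, and 0 without heifer 3, 34, 39, 42, 44, 45 or 48. In the fits with 0, the calls over all 12270 genes also fell, to between 80 and 366 from 718. Without heifers 4 and 37, chosen after the data were seen because the calls over all genes rose most without them (1875 and 1589, against 718), the same 2 genes were called. In that fit 2506 of all 12270 genes were called, so the count of 2 did not rise with the calls over all genes. Gene 2 reversed in DESeq2 with outlier replacement, to -0.34, against 4.10 in DESeq2 without replacement. Its adjusted p lay between 0.00322 and 0.309 over 7 other settings in edgeR, DESeq2 and limma, and that of gene 28 between 0.00105 and 0.0386. The Fisher count of 0 did not change with a pseudocount of 1 or with the permutation test. No paired analysis was possible because each heifer belongs to 1 group and carries its own ID. Depth limits the genes near 1 CPM, where 3 counts correspond to 0.121 to 0.188 CPM.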
